A study of Homo sapiens with 6 samples.

Results

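The antisense RNAs described here are the genes whose symbol ends in -AS1, a suffix for a noncoding RNA named after the gene on the opposite DNA strand, that had a mean of at least 1 FPKM over all 6 libraries. FPKM, the unit of the deposited values, counts sequenced fragments relative to the length of the transcript and the size of the library. Of the 33392 genes in the deposited table, 1104 carried an -AS1 name and 208 reached that level. One name, ASMTL-AS1, stood on 2 gene identifiers, so the 208 genes have 207 distinct names. Each was set beside its sense partner, the gene named before -AS1, and 202 of the 208 had such a row.

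The libraries were RNA-seq of total RNA from cells labelled HK-2, an immortalized human line of kidney proximal tubule epithelium. All cells received TGF-β1, the cytokine used to drive fibrotic change in such cells, and were taken at 48 h. The tested libraries (n = 3) came from cells given an siRNA against DYRK2, a serine/threonine and tyrosine kinase, and are called siDYRK2; the others (n = 3) came from cells given a scramble siRNA. All values are therefore of TGF-β1-treated cells, and untreated cells were not analysed here.

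Antisense RNAs are transcribed from the strand opposite a gene. Many start near that gene's own promoter and run away from it, while others cross its exons or end beneath its tail. Most are spliced and present at low levels; some are degraded in the nucleus by the RNA exosome, and some are known to act on their partner by competing for transcription, by pairing with its RNA or by changing chromatin. A library that does not keep the strand cannot separate the reads of such a pair where their exons overlap. Whether the strand was used in counting is not given in the sources used here, so reads of a gene and its antisense partner cannot be told apart at overlapping exons.

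Promoters of 4 antisense RNAs are shown because each has a RefSeq start close to a RefSeq start of its sense partner. In 3 of them part of the same DNA lies before both starts. DNAJC9-AS1 and THAP7-AS1 were lower in siDYRK2 cells while their partners were higher; CD63-AS1 and HERPUD2-AS1 were lower together with theirs. DNAJC9-AS1 and HERPUD2-AS1 were picked after their values were seen. Each sequence runs from 250 bases before to 50 bases after the RefSeq start (assembly GRCh38.p14), on the antisense RNA's own strand. Capitals mark GGGCGG, the core of a GC box, and GCATGCGC, the core of the word bound by NRF1, on either strand.
DNAJC9-AS1: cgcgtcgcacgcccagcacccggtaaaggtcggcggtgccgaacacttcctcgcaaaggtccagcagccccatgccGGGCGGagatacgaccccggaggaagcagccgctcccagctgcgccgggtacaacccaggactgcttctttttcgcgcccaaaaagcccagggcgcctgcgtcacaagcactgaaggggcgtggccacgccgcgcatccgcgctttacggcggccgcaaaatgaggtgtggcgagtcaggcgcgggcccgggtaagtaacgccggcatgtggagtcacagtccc
THAP7-AS1: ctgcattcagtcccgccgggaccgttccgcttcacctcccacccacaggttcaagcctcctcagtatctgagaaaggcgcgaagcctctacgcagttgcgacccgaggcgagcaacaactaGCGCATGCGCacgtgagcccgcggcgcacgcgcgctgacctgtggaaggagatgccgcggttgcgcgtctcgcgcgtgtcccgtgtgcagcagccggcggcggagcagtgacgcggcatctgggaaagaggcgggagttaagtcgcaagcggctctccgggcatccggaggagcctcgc
CD63-AS1: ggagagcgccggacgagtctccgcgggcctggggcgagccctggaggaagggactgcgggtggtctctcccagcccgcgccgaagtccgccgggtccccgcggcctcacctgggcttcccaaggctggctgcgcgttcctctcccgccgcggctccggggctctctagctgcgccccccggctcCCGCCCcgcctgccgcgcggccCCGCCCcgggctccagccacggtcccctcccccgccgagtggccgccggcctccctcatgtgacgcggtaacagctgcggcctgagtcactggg
HERPUD2-AS1: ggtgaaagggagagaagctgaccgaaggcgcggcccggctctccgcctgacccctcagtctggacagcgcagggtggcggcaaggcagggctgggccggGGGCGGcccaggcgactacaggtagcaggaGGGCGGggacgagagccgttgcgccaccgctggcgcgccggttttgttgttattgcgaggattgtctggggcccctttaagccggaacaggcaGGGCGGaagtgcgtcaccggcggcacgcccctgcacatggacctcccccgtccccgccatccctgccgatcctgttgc

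These windows lie at chr10:73247117-73247416 on the plus strand for DNAJC9-AS1, chr22:21001672-21001971 on the plus strand for THAP7-AS1, chr12:55728844-55729143 on the plus strand for CD63-AS1 and chr7:35694956-35695255 on the plus strand for HERPUD2-AS1. The RefSeq starts nearest to each other in a pair were 112 bases apart for DNAJC9, 196 for THAP7, 85 for CD63 and 71 for HERPUD2. The DNAJC9-AS1 window shared 211 bases with a window of DNAJC9 itself, the CD63-AS1 window shared 184 and the HERPUD2-AS1 window 170, whereas the THAP7-AS1 window shared 0 bases with that of THAP7. In THAP7-AS1 the capitals are 2 overlapping copies of GCATGCGC, 1 on each strand.

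A window was found in the RefSeq table for 160 of the antisense RNAs. GGGCGG was in 60.6% of them, against 44.6% of the 27305 promoters in the table, and GCATGCGC was in 6.25%, against 3.27%. TATAAA, the core of the TATA box, was in 5% of the antisense windows, against 11.95% of all promoters. CCAAT was in 28.8% and CCGGAAG, an ETS word, in 16.9%, against 35.7% and 10.7% of all promoters. The median ratio of observed to expected CpG was 0.781 in the antisense windows, against 0.580 in all promoters. In 172 windows of sense partners, GGGCGG was in 68.6%, TATAAA in 5.23% and CCGGAAG in 16.3%. CCAAT was in 31.4% of them and GCATGCGC in 2.33%, and their median CpG ratio was 0.805. Except for GCATGCGC, the antisense windows stood nearer to those of the sense partners than to all promoters. Some of this likeness is built in, because antisense and sense windows can be partly the same DNA and words were searched on both strands. The windows of DNAJC9-AS1, CD63-AS1 and HERPUD2-AS1 shared bases with those of their partners. Among the windows of antisense RNAs called lower in siDYRK2 cells, 66.7% of 48 held GGGCGG, against 58.0% of the other 112. The other 4 words were less frequent in the lower set: CCAAT was in 25% against 30.4%, TATAAA in 0% against 7.14%, CCGGAAG in 14.6% against 17.9% and GCATGCGC in 4.17% against 7.14%. These counts are descriptions of letters in a fixed window, searched on both strands, and were not tested.

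One more pair of sequences concerns OIP5-AS1, known as Cyrano in zebrafish and mouse, which carries a long and nearly complete match to the microRNA miR-7. The human site below lies at bases 2867 to 2894 of an 8829-base OIP5-AS1 transcript in GENCODE release 29, on chromosome 15. In the microRNA, taken from RefSeq, capitals mark the seed, bases 2 to 8. In the site, the capitals at the 3′ end mark the match to that seed and those before it mark a run of 14 bases complementary to the microRNA's 3′ part.
hsa-miR-7-5p: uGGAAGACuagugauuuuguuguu
OIP5-AS1 site: agAACAACAAAATCACcaatGTCTTCCa

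DYRK2 itself, on chr12:67648338-67665406, was at 1.45, 1.54 and 1.49 FPKM in the siDYRK2 libraries, against 5.84, 6.06 and 5.96 FPKM in the scramble libraries. The groups did not overlap, and siDYRK2 cells kept on average 25.1% of the scramble level. On log2(FPKM + 0.5), siDYRK2 minus scramble, the fold change was −1.69 (SE 0.0513, limma adjusted p = 2.0e-06), and the exact two-sided permutation p was 0.1, the smallest that 3 libraries against 3 allow. Summed FPKM per library ran over 252318 to 255378, with 26.3% to 27.8% of it from mitochondrially encoded genes; FPKM keeps no read depth, so the depth is unknown. Of 13 proximal tubule markers listed, 10 had a row and 0 reached a mean of 0.5 FPKM; their sum was 0.86 to 1.14 FPKM in siDYRK2 and 1.00 to 1.14 FPKM in scramble libraries. The low tubule markers go against the tubule label. NKX2-1, which controls transcription in the epithelia of lung and thyroid, was at 23.1 to 24.0 FPKM in siDYRK2 and 25.5 to 27.3 FPKM in scramble libraries. It is 1 of 8 lung markers listed, of which 6 had a row and 4 were tested. The list was mixed: over the 6 libraries SFTPB averaged 3.84 and NAPSA 1.61 FPKM, but FOXA2 0.082 and SFTPC 0.032 FPKM. SFTA3 averaged 7.87 FPKM under 1 identifier and 0.17 FPKM under another. The 6 general epithelial markers summed to 768 to 808 FPKM in siDYRK2 and 718 to 734 FPKM in scramble libraries, most of it from keratins; 3 of the 6 fell and 1, KRT7, rose, with a median log2 fold change of −0.34. CDH1, the gene of E-cadherin, averaged 1.17 FPKM in siDYRK2 and 2.97 FPKM in scramble libraries. Summed fibroblast markers were at 0.64 to 0.81 FPKM in siDYRK2 and 0.37 to 0.42 FPKM in scramble libraries, and endothelial markers at 0.10 to 0.16 FPKM in siDYRK2 and 0.05 to 0.09 FPKM in scramble libraries; 0 genes of either list reached 0.5 FPKM on average. Summed leukocyte markers, nearly all of it CD68, were at 17 to 17.8 FPKM in siDYRK2 and 11.3 to 17.8 FPKM in scramble libraries. The part of other cells in the results was not tested.

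Antisense RNAs were mostly low in abundance. Their mean over the 6 libraries had a median of 1.98 FPKM and ran over 1.01 to 28.2 FPKM; 105 lay between 1 and 2 FPKM, 67 between 2 and 5 and 36 at 5 FPKM or more. Of the 896 -AS1 genes left out, 134 were at 0.5 to 1 FPKM, 762 were under 0.5 FPKM and 14 were listed at 0 in every library. JMJD1C-AS1 (1.01 FPKM), KCTD21-AS1 (1.01 FPKM) and ELOA-AS1 (1.03 FPKM) lay just inside the limit, and ELF3-AS1 (0.988 FPKM), TM4SF19-AS1 (0.987 FPKM) and PRR7-AS1 (0.977 FPKM) just outside it. In 162 of the 208, every library was at 1 FPKM or more.

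In siDYRK2 cells the antisense RNAs leaned toward lower levels. Of the 208, 61 fell and 10 rose, at an adjusted p under 0.05 by limma with Benjamini-Hochberg adjustment over 15121 genes, and 137 were not called. That is 29.3% lower and 4.81% higher; of all genes tested 17.9% were lower, 20.4% were higher and 38.3% were called in either direction. The median log2 fold change was −0.14 for the antisense RNAs and 0.0086 for all genes tested, and 71.2% of the antisense RNAs lay below 0, against 48.5% of all genes. All 3 siDYRK2 libraries lay below all 3 scramble libraries for 74 antisense RNAs (35.6%, with 24.3% among all genes), and above them for 14 (6.73%, with 27.4% among all genes). The number called higher was 6 without siDYRK2 replicate 1 and 6 without siDYRK2 replicate 2.

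Together the 208 summed to 645, 630 and 605 FPKM in the siDYRK2 libraries, against 715, 722 and 722 FPKM in the scramble libraries. No siDYRK2 library reached the lowest scramble library, and the siDYRK2 mean of 626.9 ± 20.4 FPKM was 87.1% of the scramble mean of 719.5 ± 4.27 FPKM (SD, n = 3 each). In these bulk libraries, fewer cells that express an RNA and less RNA per cell cannot be told apart. Because the members were chosen by their mean over both groups, 18 of them were at 1 FPKM or more in only 1 group, 14 in scramble only and 4 in siDYRK2 only. Among the 190 with both group means at 1 FPKM or more, 56 fell and 9 rose, and the median log2 fold change was −0.13.

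**Figure D1:**
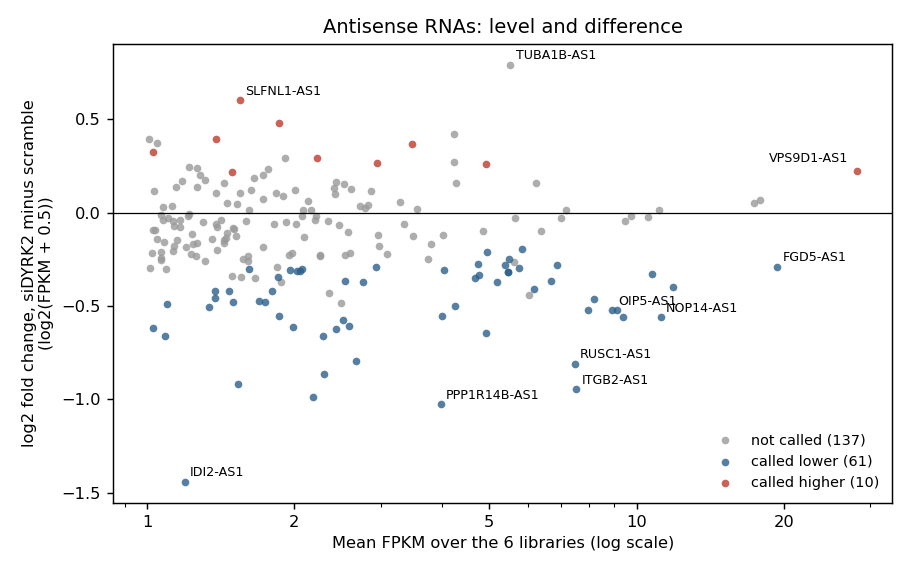
Each point is 1 of the 208 antisense RNAs, placed by its mean FPKM over 6 libraries (log axis) and its log2 fold change, siDYRK2 minus scramble, on log2(FPKM + 0.5); blue points were called lower (61), red points higher (10) and grey points were not called (137). Points called lower outnumber those called higher from 1 to 2, from 2 to 5 and from 5 to 30 FPKM, and IDI2-AS1 is lowest at −1.44.

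The share called lower was larger among the more abundant antisense RNAs. Of those between 1 and 2 FPKM, 17.1% were lower, of those between 2 and 5 FPKM 32.8%, and of those between 5 and 30 FPKM 58.3% (21 of 36, median log2 fold change −0.29). Protein-coding genes in the same 3 ranges were lower in 13.2%, 17.3% and 20.2%. A low level limits what the test can call, so shares are comparable only within a range of levels.

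Other noncoding names leaned the same way. At 1 FPKM or more, 25 of 90 genes named -DT, for divergent transcripts, were lower and 5 were higher, and 26 of 94 genes named LINC, for intergenic noncoding RNAs, were lower and 4 were higher. Genes that GENCODE types as antisense but that are no members were lower in 53 of 228 and higher in 10, and its lincRNAs were lower in 81 of 274 and higher in 14. Median log2 fold changes were −0.12 for -DT, −0.18 for LINC, −0.12 for the other antisense genes and −0.18 for lincRNAs. Protein-coding genes in the same range of FPKM as the members were lower in 18.3% and higher in 24.0%, with a median of 0.026. Differences between these classes were not tested.

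**Figure D2:**
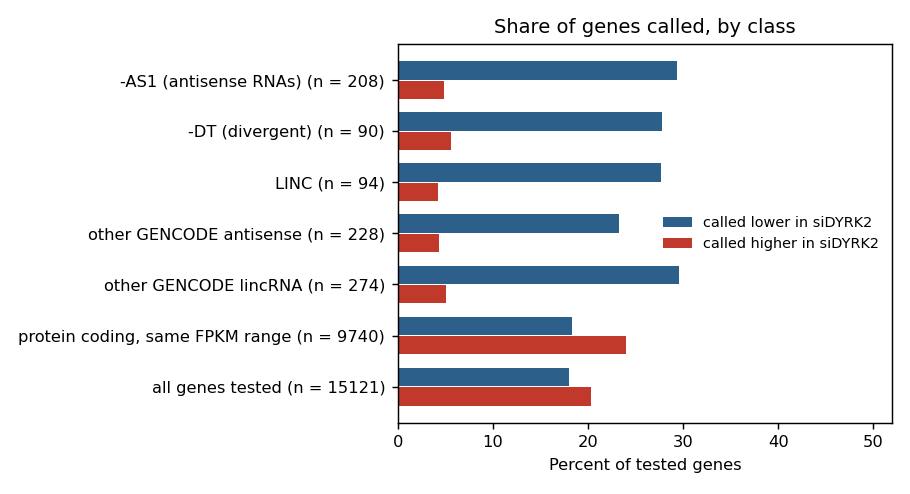
Bars give the percent of tested genes in each class called lower (blue, upper bar) or higher (red, lower bar) in siDYRK2 relative to scramble cells at an adjusted p under 0.05; n is the number of genes. The 4 other noncoding classes have a longer blue than red bar, as the -AS1 genes do (29.3% and 4.81%), and protein-coding genes of the same FPKM range have the reverse (18.3% and 24.0%).

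The largest fall was that of IDI2-AS1 (chr10:1022666-1044201, plus strand), which lies opposite IDI2, a paralog of the isoprenoid isomerase IDI1. It was at 0.18, 0.40 and 0.70 FPKM in siDYRK2 libraries, against 1.65, 2.02 and 2.21 FPKM in scramble libraries. It thus met the limit of 1 FPKM only through the scramble libraries. The groups were well apart although the siDYRK2 libraries differed among themselves (log2 fold change −1.44, SE 0.205, limma adjusted p = 0.0016). IDI2 itself was near 0, at most 0.05 FPKM in any library.

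PPP1R14B-AS1 (chr11:64245964-64248217, plus strand) starts beside PPP1R14B, which encodes an inhibitor of protein phosphatase 1. It was at 2.28, 2.28 and 2.77 FPKM in siDYRK2 libraries, against 4.88, 5.08 and 6.58 FPKM in scramble libraries. Every siDYRK2 value was below every scramble value (log2 fold change −1.02, SE 0.118, limma adjusted p = 0.00061). PPP1R14B, far more abundant, was at 92.0 ± 5.87 FPKM in siDYRK2 and 93.0 ± 3.79 FPKM in scramble libraries (SD, n = 3 each), and was not called (limma adjusted p = 0.84).

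SOCS2-AS1 (chr12:93542463-93571768, minus strand) was at 1.36, 1.44 and 1.10 FPKM in siDYRK2 libraries, against 2.88, 3.11 and 3.20 FPKM in scramble libraries (log2 fold change −0.99, SE 0.0896, limma adjusted p = 0.00023). Its partner SOCS2, a feedback inhibitor of cytokine and growth hormone signalling, was at 3.72, 3.46 and 3.44 FPKM in siDYRK2 libraries, against 6.31, 6.16 and 6.62 FPKM in scramble libraries (log2 fold change −0.76, limma adjusted p = 6.4e-05). Neither gene's groups overlapped, and mean FPKM was 2.36-fold lower for the antisense RNA and 1.80-fold lower for SOCS2.

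ITGB2-AS1 (chr21:44921051-44929678, plus strand) lies inside ITGB2, the gene of integrin β2, best known from leukocytes. It was at 4.87, 5.09 and 4.98 FPKM in siDYRK2 libraries, against 10.5, 9.62 and 10.0 FPKM in scramble libraries. The 3 siDYRK2 values differed little and were all below the scramble values (log2 fold change −0.95, SE 0.0469, limma adjusted p = 1.6e-05). ITGB2 was at 11.4 ± 0.934 FPKM in siDYRK2 and 20.2 ± 0.18 FPKM in scramble libraries (log2 fold change −0.80, limma adjusted p = 8.0e-05). Of the antisense exon bases, 12.4% lie under exons of ITGB2.

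VIM-AS1, which starts beside the gene of vimentin, an intermediate filament protein of mesenchymal cells, was at 0.83, 1.20 and 0.69 FPKM in siDYRK2 libraries, against 2.55, 1.55 and 2.39 FPKM in scramble libraries. The groups did not overlap, with scramble replicate 2 nearest to the siDYRK2 values (log2 fold change −0.92, SE 0.187, limma adjusted p = 0.0075). VIM-AS1 had a siDYRK2 mean under 1 FPKM, so it too met the limit only through the scramble libraries. VIM was at 211 ± 5.12 FPKM in siDYRK2 and 234 ± 14.5 FPKM in scramble libraries, a log2 difference of −0.15 (limma adjusted p = 0.044). That call on VIM was lost without any of scramble replicates 1 and 2 and siDYRK2 replicates 1, 2 and 3, where the log2 difference was −0.17 to −0.11, and it was −0.07 with quantile normalization, not called. Of the 14 alternative fits described at the end, 10 lost the call on VIM, these among them.

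The other 5 of the 10 largest falls had log2 fold changes of −0.86 for TAPT1-AS1, −0.81 for RUSC1-AS1, −0.79 for LIPT2-AS1, −0.66 for H2BC6-AS1 and −0.66 for TFAP2A-AS1. TAPT1-AS1 was at 1.24, 1.68 and 1.55 FPKM in siDYRK2 libraries, against 2.82, 3.40 and 3.10 FPKM in scramble libraries, while TAPT1 was not called (log2 difference 0.16, limma adjusted p = 0.053), although it was called higher without siDYRK2 replicate 3 (0.20). Altogether TAPT1 was called in 4 of the alternative fits. LIPT2-AS1 was at 1.82 ± 0.193 FPKM in siDYRK2 and 3.52 ± 0.159 FPKM in scramble libraries. Its partner LIPT2, an enzyme of mitochondrial lipoate synthesis, was at 0.373 ± 0.187 FPKM in siDYRK2 and 0.777 ± 0.169 FPKM in scramble libraries and was not called (log2 difference −0.56, limma adjusted p = 0.051), though it was called lower without siDYRK2 replicate 1 (−0.68). Altogether LIPT2 was called in 3 of the alternative fits. TFAP2A-AS1 fell together with TFAP2A, the gene of transcription factor AP-2α, whose log2 fold change was −0.40. H2BC6-AS1 was not called without scramble replicate 1 or 2 or siDYRK2 replicate 1 or 2, where its log2 difference ran over −0.61 to −0.56, and H2BC6, a histone H2B gene, was under the level tested. Altogether H2BC6-AS1 lost its call in 6 of the alternative fits.

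**Figure D3:**
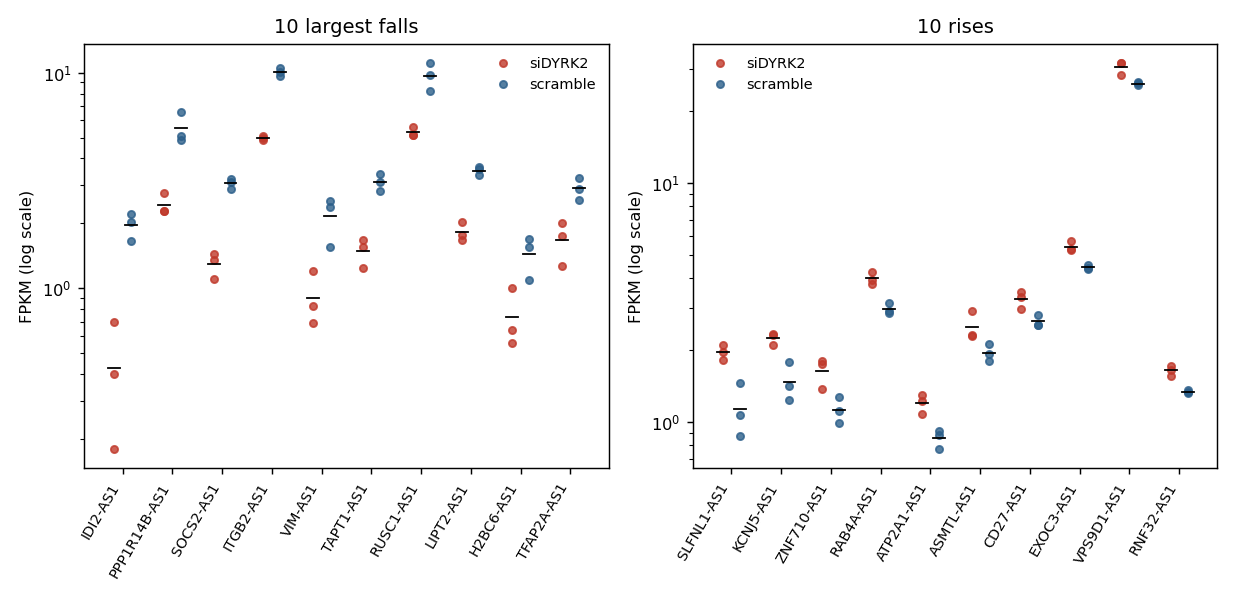
FPKM (log axes) of the 10 antisense RNAs with the largest falls, left panel, and of the 10 called higher, right panel; each dot is a library, siDYRK2 in red on the left and scramble in blue on the right of each pair, with a black bar at the mean of 3. In all 20 the red and blue dots do not overlap, and the distance is widest for IDI2-AS1.

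Rises were fewer and smaller. SLFNL1-AS1 had the largest log2 fold change, 0.60 (SE 0.134, limma adjusted p = 0.011), at 2.10, 1.96 and 1.81 FPKM in siDYRK2 libraries, against 1.07, 0.87 and 1.46 FPKM in scramble libraries. KCNJ5-AS1 rose by 0.48, RAB4A-AS1 by 0.37 and EXOC3-AS1 by 0.26 on the log2 scale. RAB4A-AS1 was at 4.23, 3.78 and 3.92 FPKM in siDYRK2 libraries, against 2.92, 3.14 and 2.84 FPKM in scramble libraries, with groups that did not overlap. Its partner RAB4A, a small GTPase of endosome recycling, was at 12.55 ± 0.386 FPKM in siDYRK2 and 12.01 ± 0.51 FPKM in scramble libraries and was not called. The remaining rises were ZNF710-AS1 (0.39), ATP2A1-AS1 (0.32), ASMTL-AS1 (0.29, limma adjusted p = 0.049), CD27-AS1 (0.26), RNF32-AS1 (0.22) and VPS9D1-AS1 (0.22). Calls on ASMTL-AS1 and RNF32-AS1 were lost when any single library was left out. The call on ZNF710-AS1 was lost without scramble replicate 1 or 2 or siDYRK2 replicate 1 or 2, that on ATP2A1-AS1 without any library but siDYRK2 replicate 1, and that on CD27-AS1 without scramble replicate 1 or 3 or siDYRK2 replicate 1 or 2. Log2 differences of these 5 were then 0.20 to 0.39. ASMTL-AS1 has a second identifier under the same name, which was not called (log2 difference 0.07). How reads were shared between the 2 identifiers is not given in the sources used here.

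VPS9D1-AS1 was the most abundant of the antisense RNAs and the only one of the 36 at 5 FPKM or more that rose. It was at 31.5, 31.6 and 28.3 FPKM in siDYRK2 libraries, against 26.2, 26.1 and 25.6 FPKM in scramble libraries (log2 fold change 0.22, SE 0.047, limma adjusted p = 0.0083). All siDYRK2 libraries were above all scramble libraries, with siDYRK2 replicate 3 nearest to them. VPS9D1, within which it lies, was at 3.81, 4.01 and 4.48 FPKM in siDYRK2 libraries, against 5.19, 4.92 and 4.74 FPKM in scramble libraries (log2 fold change −0.25, limma adjusted p = 0.024). This was the only pair of the tested ones with the antisense RNA called higher and the sense gene called lower; the VPS9D1 call was lost without scramble replicate 1 or 2 or siDYRK2 replicate 1 or 2, with log2 differences of −0.25 to −0.20.

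The next most abundant, FGD5-AS1, was at 17.84, 17.20 and 17.04 FPKM in siDYRK2 libraries, against 21.18, 21.34 and 21.50 FPKM in scramble libraries (log2 fold change −0.29, SE 0.0324, limma adjusted p = 0.00054). FGD5 was not analysed here. TMEM147-AS1 fell likewise, by 0.33 on the log2 scale, with 9.47 ± 0.556 FPKM in siDYRK2 and 11.997 ± 0.499 FPKM in scramble libraries. Of the 10 most abundant, THAP9-AS1, MIF-AS1, HSD17B1-AS1, URB1-AS1 and MRPL20-AS1 were not called, with log2 differences between −0.02 and 0.07. URB1-AS1 starts 104 bases from URB1, a gene of ribosome biogenesis. It was at 10.7, 10.5 and 10.2 FPKM in siDYRK2 libraries, against 11.3, 10.8 and 9.82 FPKM in scramble libraries, with overlapping groups, whereas URB1 rose (7.90 ± 0.341 FPKM in siDYRK2, 5.75 ± 0.217 FPKM in scramble; log2 fold change 0.43, limma adjusted p = 0.00064).

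Sense partners were called about as often in each direction. Of the 202 with a row, 174 reached the level tested; 39 rose (22.4%), 41 fell (23.6%) and 94 were not called, and their median log2 fold change was 0.013. These shares lie near those of all genes tested, 20.4% higher and 17.9% lower. In FPKM, which is per length, the antisense RNA exceeded its partner in 64 pairs, and the median ratio of antisense to sense was 43.6%. Both genes fell in 16 pairs and both rose in 0. In 14 pairs the genes were called in opposite directions, 13 of them with the antisense RNA lower and the sense gene higher. Without scramble replicate 1 the pairs called in the same direction numbered 8.

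The calls on the sense gene were counted by the call on its antisense RNA, with no test of the difference. Of the 54 tested partners of an antisense RNA that fell, 13 rose (24.1%), 16 fell (29.6%) and 25 were not called. Of the 113 partners of an antisense RNA that was not called, 26 rose (23.0%) and 24 fell (21.2%). Of the 7 tested partners of an antisense RNA that rose, 0 rose, 1 fell and 6 were not called. Across all 174 pairs, which share the 6 libraries, the log2 fold changes of antisense and sense had a Pearson correlation of 0.25 and a Spearman correlation of 0.19, given as a description.

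**Figure D4:**
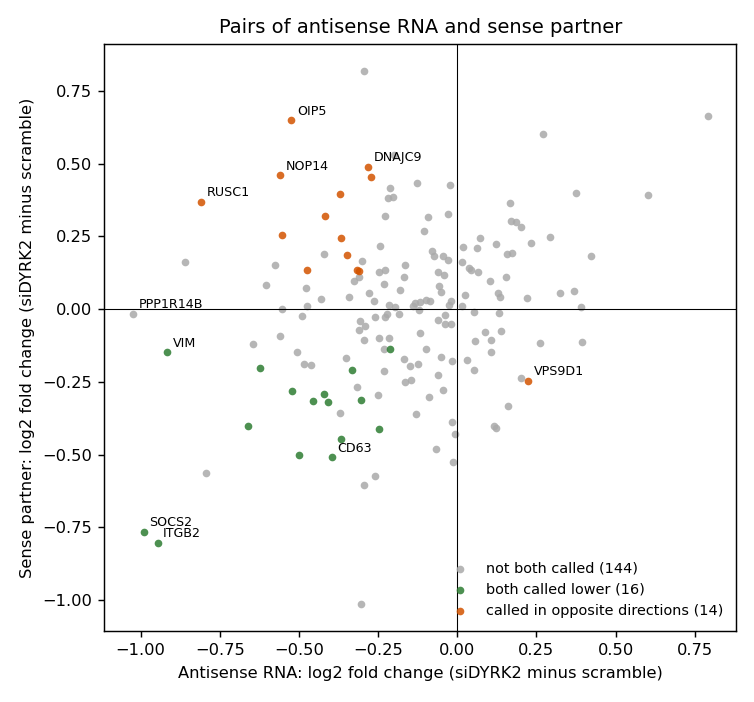
Each point is 1 of 174 pairs, with the log2 fold change (siDYRK2 minus scramble) of the antisense RNA on the horizontal axis and of its sense partner on the vertical axis; green marks the 16 pairs with both genes called lower, orange the 14 called in opposite directions and grey all others. Orange points lie in the upper left except VPS9D1, and SOCS2 and ITGB2 are farthest toward the lower left.

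Among the pairs called in opposite directions, OIP5 and its antisense RNA moved farthest on the sense side. OIP5-AS1 (chr15:41283990-41309737, plus strand), the carrier of the miR-7 site shown above, was at 7.69, 7.57 and 6.47 FPKM in siDYRK2 libraries, against 10.2, 10.7 and 10.9 FPKM in scramble libraries. Its groups did not overlap (log2 fold change −0.52, SE 0.0676, limma adjusted p = 0.0010). OIP5, a protein of the Mis18 complex that prepares centromeres for CENP-A, was at 14.6, 14.9 and 16.8 FPKM in siDYRK2 libraries, against 8.26, 9.01 and 12 FPKM in scramble libraries (log2 fold change 0.65, SE 0.128, limma adjusted p = 0.0065). The log2 ratio of antisense to sense was −1.04 ± 0.237 in siDYRK2 and 0.13 ± 0.235 in scramble libraries (SD, n = 3 each; exact two-sided permutation p = 0.1, the smallest possible). In FPKM, OIP5-AS1 stood below OIP5 in all 3 siDYRK2 libraries and above it in 2 of 3 scramble libraries.

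NOP14-AS1 was at 9.41, 8.51 and 8.88 FPKM in siDYRK2 libraries, against 13.8, 11.4 and 15.2 FPKM in scramble libraries (log2 fold change −0.56, SE 0.098, limma adjusted p = 0.0039). Its partner NOP14, a factor of small ribosomal subunit assembly, was at 33.4 ± 1.59 FPKM in siDYRK2 and 24.1 ± 1.02 FPKM in scramble libraries (log2 fold change 0.46, limma adjusted p = 0.00037). Both genes' groups were apart. RUSC1-AS1 was at 5.60, 5.12 and 5.12 FPKM in siDYRK2 libraries, against 11.1, 9.79 and 8.20 FPKM in scramble libraries, and RUSC1, a RUN and SH3 domain protein, at 22.3 ± 0.623 FPKM in siDYRK2 and 17.2 ± 0.918 FPKM in scramble libraries (log2 fold changes −0.81 and 0.37). The difference in log2 ratio, siDYRK2 minus scramble, was −1.18 for RUSC1, −1.17 for OIP5 and −1.02 for NOP14.

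BAZ1A, MCM3AP and THAP7 showed the same arrangement of signs with smaller sizes. BAZ1A-AS1 was at 1.41 ± 0.11 FPKM in siDYRK2 and 2.31 ± 0.332 FPKM in scramble libraries, and BAZ1A, a subunit of ISWI chromatin remodellers, at 31.2 ± 0.406 FPKM in siDYRK2 and 26.1 ± 0.114 FPKM in scramble libraries. MCM3AP-AS1 had a log2 fold change of −0.37 and MCM3AP, the messenger RNA export factor GANP, one of 0.24. THAP7-AS1 was at 3.91, 3.91 and 4.35 FPKM in siDYRK2 libraries, against 5.56, 5.12 and 5.22 FPKM in scramble libraries; THAP7, a DNA-binding repressor, was at 21.2 ± 0.512 FPKM in siDYRK2 and 18.6 ± 0.382 FPKM in scramble libraries.

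The other opposite pairs, named after their values were seen, included DNAJC9, GABPB1, TMEM9B, TNFRSF10A, STARD7 and GOLGA4. DNAJC9-AS1, whose promoter is shown above, was at 5.10, 4.98 and 4.4 FPKM in siDYRK2 libraries, against 5.75, 6.08 and 6.07 FPKM in scramble libraries, and DNAJC9, a histone co-chaperone, at 25.8 ± 0.646 FPKM in siDYRK2 and 18.3 ± 0.4 FPKM in scramble libraries (log2 fold changes −0.28 and 0.49). Of the 14 opposite pairs, 9 had both calls in each of the 14 alternative settings; TNFRSF10A, STARD7, GOLGA4 and VPS9D1 were among those that did not. In all 14 pairs the ratios of the groups did not overlap. This had to be so, because in each pair the siDYRK2 libraries lay all below scramble for 1 gene and all above for the other. The exact permutation p of 0.1 for the OIP5 ratio was fixed in the same way.

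**Figure D5:**
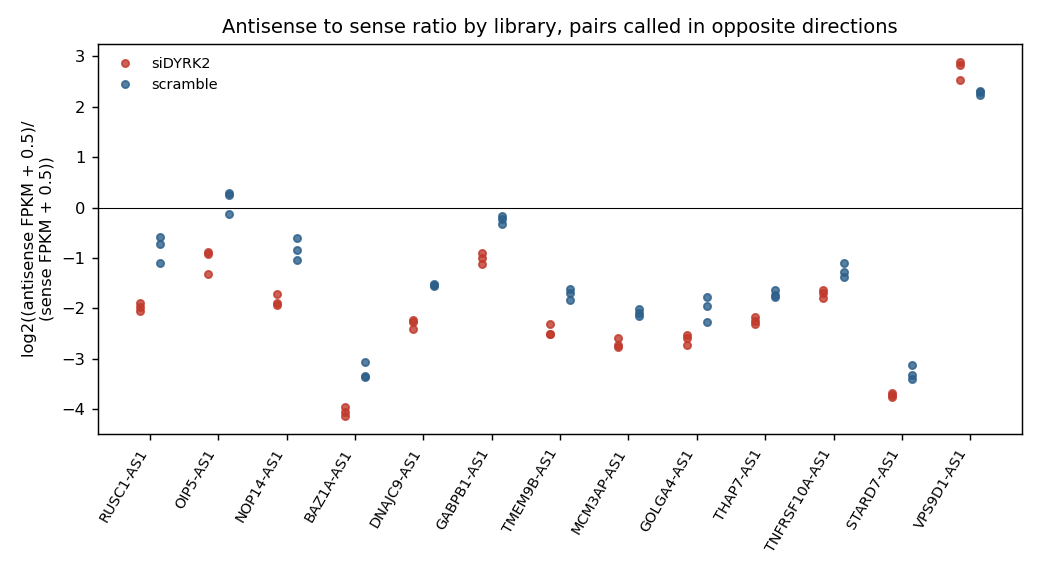
Log2 ratio of antisense to sense level, each as FPKM + 0.5, in every library of 13 of the 14 pairs called in opposite directions; siDYRK2 libraries are red and on the left of each pair, scramble libraries blue and on the right. In 12 pairs the red points lie below the blue ones, with a difference in mean log2 ratio of −1.18 for RUSC1-AS1, and in VPS9D1-AS1 above them.

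Pairs that fell together included SOCS2 and ITGB2, described above, and CD63, CSRP1, ARHGAP5, LBX2, MALT1 and TFAP2A. CD63-AS1 was at 10.5, 10.0 and 10.0 FPKM in siDYRK2 libraries, against 11.98, 14.42 and 14.41 FPKM in scramble libraries (log2 fold change −0.40, SE 0.0728, limma adjusted p = 0.0049). CD63, a tetraspanin of late endosomes and exosomes, was at 94.8 ± 2.29 FPKM in siDYRK2 and 135 ± 0.657 FPKM in scramble libraries (log2 fold change −0.51, limma adjusted p = 2.6e-05). The ratio of antisense to sense overlapped between groups, with a log2 difference of 0.11 (exact two-sided permutation p = 0.4).

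CSRP1-AS1 was at 7.41 ± 0.764 FPKM in siDYRK2 and 10.8 ± 0.615 FPKM in scramble libraries, and CSRP1, a LIM-domain protein of the actin cytoskeleton, at 18.7 ± 0.108 FPKM in siDYRK2 and 22.8 ± 1.45 FPKM in scramble libraries. ARHGAP5-AS1 fell by 0.33 and ARHGAP5 by 0.21 on the log2 scale. LBX2-AS1 and the homeobox gene LBX2 fell by 0.37 and 0.45, and MALT1-AS1 and MALT1, a protease of NF-κB signalling, by 0.42 and 0.29; the MALT1-AS1 call was lost without scramble replicate 2 (log2 difference −0.37). HERPUD2-AS1, whose promoter is shown above, was at 4.94, 4.94 and 5.01 FPKM in siDYRK2 libraries, against 6.51, 6.03 and 5.44 FPKM in scramble libraries, and its call was lost without scramble replicate 1 or 2 or siDYRK2 replicate 1 or 2, with log2 differences of −0.24 to −0.19. Altogether HERPUD2-AS1 lost its call in 5 of the alternative fits. Its partner HERPUD2 was at 10.8 ± 0.289 FPKM in siDYRK2 and 14.5 ± 0.312 FPKM in scramble libraries. Of the 16 pairs, 6 had both calls in each of the 14 alternative settings, and the ratios of the groups did not overlap in 3.

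How a pair lies in the genome was taken from GENCODE release 29 on GRCh38, by gene identifier, for 200 pairs; it may differ from the annotation behind the deposited values. In 97 pairs the genes overlapped at their 5′ ends and ran apart, in 16 they ran apart without overlap, in 40 the antisense RNA lay inside the sense gene and in 45 it ran under its tail or spanned it; 1 other pair lay tail to tail and apart, and 1 on the same strand. The antisense RNA fell in 35 of the 97 (36.1%), 3 of the 16 (18.8%), 10 of the 40 (25%) and 12 of the 45 (26.7%). It rose in 2, 1, 4 and 2 of them. Of all 200 antisense RNAs placed, 30% fell, and of all genes tested 17.9% were lower and 20.4% higher. Differences between the arrangements were not tested. In the 97, 11 pairs fell together and 8 had the antisense RNA lower with the sense gene higher. In the 40 inside the sense gene, 4 fell together and 0 had the antisense lower with the sense higher. The log2 fold changes of antisense and sense had a Pearson correlation of 0.57 over the 31 tested pairs of the inside arrangement, 0.27 over 87 of the overlapping 5′ ends and 0.0045 over 39 of the tail arrangement, as descriptions.

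The counts were also split by overlap of exons. Of 163 antisense RNAs with any exon base under an exon of the opposite strand, 55 fell (33.7%) and 7 rose, the median log2 fold change being −0.18. Of the 43 with no such base, 6 fell (14.0%) and 2 rose, with a median of −0.078. Among all genes tested, 17.9% were lower and 20.4% were higher. Median levels were close, 1.98 FPKM in the overlapping set and 1.93 FPKM in the other. All 16 pairs that fell together and all 13 with antisense lower and sense higher were in the overlapping set. The overlapping exon there may belong to any gene of the opposite strand, not only to the partner. With under 5% of antisense exon bases under the partner's own exons, 1 pair fell together and 4 had antisense lower and sense higher. The overlapping set held 140 tested partners, against 33 in the other, and its antisense RNAs had more exon bases (median 2290 against 1393). By the share of antisense exon bases under the partner's own exons, 24.7% of 77 with under 5% fell, 40.5% of 74 with 5% to 25% and 22.4% of 49 with 25% or more. The part of reads from the other strand in these counts was not tested.

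The largest shares under the partner's exons were 85.2% in HSD17B1-AS1, 83.3% in AP1G2-AS1, 80.2% in TUBA1B-AS1 and 69.9% in PITPNA-AS1. TUBA1B-AS1 lies opposite TUBA1B, an abundant α-tubulin gene, and was at 10.6, 1.78 and 8.70 FPKM in siDYRK2 libraries, against 0.84, 7.72 and 3.56 FPKM in scramble libraries. Its values overlapped widely and it was not called (log2 difference 0.79, SE 0.779, limma adjusted p = 0.46), although no antisense RNA had a larger positive difference. TUBA1B rose, with 213 ± 10.7 FPKM in siDYRK2 and 134 ± 13.6 FPKM in scramble libraries (log2 fold change 0.66, limma adjusted p = 0.00050). HSD17B1-AS1 was at 11.2 ± 0.457 FPKM in siDYRK2 and 11.0 ± 0.0902 FPKM in scramble libraries, with HSD17B1 under 0.5 FPKM. PITPNA-AS1 fell by 0.20 on the log2 scale (limma adjusted p = 0.012), and PITPNA was not called.

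Genes whose proteins end, degrade or bind antisense RNAs were looked at as 3 lists. Of all genes tested, 20.4% were higher and 17.9% lower. Of protein-coding genes at 5 to 30 FPKM, where most of the termination and exosome genes lay, 28.6% were higher and 20.2% lower. In the list for termination of noncoding transcription, 8 of 20 rose and 0 fell, the median log2 fold change being 0.10. NCBP1, the large subunit of the nuclear cap-binding complex, was at 22.8 ± 0.0503 FPKM in siDYRK2 and 19.01 ± 0.304 FPKM in scramble libraries (log2 fold change 0.26, limma adjusted p = 0.00062). SCAF4, which prevents readthrough of polyadenylation sites, rose by 0.22, and CLP1, a subunit of cleavage factor II, rose by 0.30 on the log2 scale.

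Among the nuclear exosome and its cofactors, 6 of 22 rose and 3 fell, with a median of 0.023, close to the shares of all genes tested. MTREX, the helicase that feeds RNA to the exosome, was at 13.1 ± 0.468 FPKM in siDYRK2 and 10.4 ± 0.432 FPKM in scramble libraries (log2 fold change 0.32, limma adjusted p = 0.0017). EXOSC2 and EXOSC9, core subunits, rose by 0.31 and 0.28. Of 23 genes for double-stranded RNA binding, editing and sensing, 19 were tested, 3 rose and 3 fell, with a median of 0.0043, also close to those shares. Those that fell were ADARB1, an RNA-editing deaminase (−0.37), AGO2, the slicing Argonaute (−0.31), and STAU1, a double-stranded RNA-binding protein (−0.21).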

How the data were processed

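Per the labels' protocols, total RNA was extracted with Trizol and DNase I and sequenced on an Illumina platform. HISAT2 and StringTie are listed as tools and GRCh38 as the build in the submitters' processing notes, which give no versions and no roles. The authors deposited FPKM for 33392 genes in 6 columns. Annotation, strand use and depth are not given there, and read counts could not be worked back from the values (at best 24.4% to 27.1% of low values per library came within 0.1 of a whole number, with 20% by chance).

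The fit covered 15121 genes, those averaging 0.5 FPKM or more, on the scale of log2(FPKM + 0.5), and used limma 3.58.1 (R 4.3.3) with a mean-variance trend and no covariate, and Benjamini-Hochberg adjustment at 0.05; such fold changes understate those of low genes. The script was tested on simulated data. The labels do not say that the 3 libraries of a group came from separate cultures, so p-values measure only the spread between these libraries, which may be technical. Ratios of antisense to sense were compared by exact permutation tests. Members and lists were chosen with earlier results of these data known. Members named are the 10 most abundant, the 10 largest falls and 10 largest rises among those called, up to 6 pairs called in opposite and 8 in the same direction by adjusted p, the 3 nearest each side of 1 FPKM, the 4 with most exon overlap, and from each list up to 3 called genes with the smallest adjusted p; other names are marked as chosen after their values were seen. Positions, strands and overlap came from GENCODE release 29 by gene identifier (206 of 208 members; 73 have another name there). Alternatives were other pseudocounts, filters and scalings, no trend, a replicate block, each library left out, and other membership limits. Values of 1 pair called in opposite directions are not reported here, though the pair is in the counts.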

Additional observations from a re-analysis of the deposited data

How the results depend on the processing

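Over 14 alternative fits the median log2 fold change of the antisense RNAs stayed between −0.18 and −0.11, the number called lower between 44 and 63, and DYRK2 between −1.93 and −1.48. No call on an antisense RNA reversed its direction in these fits. Without a filter on low values, 5 antisense RNAs were called higher, 9 pairs were called in the same direction and 9 in opposite directions. With 1 library left out, 6 to 9 were called higher and 48 to 57 lower, 8 to 13 pairs were called in the same direction and 10 to 15 in opposite directions. A limit of 0.5 FPKM gave 342 antisense RNAs, of which 77 fell and 12 rose, and a limit of 2 FPKM gave 103, of which 43 fell and 5 rose. Of the 10 largest falls, 9 were called in each of the 14 fits, and of the 10 rises 5 were. Deviations of same-numbered libraries correlated at −0.077, 0.024 and −0.088, and those of different-numbered libraries at −0.040 to 0.110. Pairing by replicate number was thus not seen, but these few values cannot exclude it. With the replicate block 52 antisense RNAs were called lower and 8 higher, of which 51 and 7 were also called without it. FPKM holds no counts, so no counting interval can be given, and a gene near 1 FPKM may rest on few reads.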
